A study of Mus musculus with 30 samples.

Results

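The transcripts of 44 genes that build and steer the mitotic spindle were followed through 5 sorted stromal populations of the neonatal mouse thymus, with and without blockade of vascular endothelial growth factor (VEGF). The genes were taken by symbol and by known function: 10 kinesin motors, 7 cyclins and mitotic kinases with CDK1, 4 genes of the spindle checkpoint, 7 of the centromere and kinetochore, 3 of the chromosomal passenger complex, 4 of the spindle and its midzone, 3 of anaphase promotion and 6 of chromosome structure. All 44 were among the 18847 genes of the deposited table, and all 44 belonged to the 16425 genes that reached 1 FPKM (fragments per kilobase, scaled to the size of the library) in at least 2 libraries and were tested. Kifc1 did so in 2 libraries and Espl1 and Kif2c in 11 each, whereas 13 of the genes reached 1 FPKM in all 30 libraries.

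The mice were newborns of strain B6.SJL and of mixed sex. Each received, on postnatal day 1, either aflibercept (VEGF-Trap, called Trap here), a soluble decoy made of VEGF receptor parts, or human Fc protein as the control, and thymi were collected on postnatal day 3. All cells were negative for CD3, CD4, CD8, CD45 and TER119, and were sorted as CD31-positive endothelium, CD146-positive mesenchyme, CD140a-positive mesenchyme (both lacking EpCAM and CD31), EpCAM-positive and Ly51-positive cortical epithelium (cTEC) and EpCAM-positive medullary epithelium with low or no Ly51 (mTEC). Each population had 2 control and 4 Trap libraries, 30 in all. How many animals went into each library is not in the labels, and the p-values therefore reflect library-to-library spread alone, part of which may be technical.

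When a cell enters mitosis, CDK1 with its cyclins switches on the programme, kinesins and microtubule-bound proteins build a bipolar spindle, condensins and topoisomerase II fold the chromosomes, and kinetochores fasten them to microtubules. The checkpoint holds the cell until every chromosome is attached, after which CDC20 and the anaphase-promoting complex release separase and the sister chromatids part. Most of these transcripts are made only by cycling cells, late in the cycle, so that their level in bulk RNA follows the share of dividing cells. A fall in a bulk library can come from fewer dividing cells or from less RNA in each of them, and these cannot be told apart here.

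The sorted populations carried their own markers. The mean log2(FPKM + 1) over 12 endothelial markers was 6.64 to 6.86 in the endothelial libraries and at most 1.32 in the others. Total FPKM was 184608 to 241993 per library, and the number of reads behind a value is unknown. Every log2 difference below is on the log2(FPKM + 1) scale, which understates changes of low genes, and is given ± SE. Tests used limma over all 30 libraries with Benjamini-Hochberg adjustment over the 16425 genes, and a gene passed at an adjusted p under 0.05. Each gene had 1 spread pooled over the 10 groups of population and treatment, so an SE is not that of a single population.

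In endothelium, 10 of the 44 genes fell with Trap and 0 rose, against a background of 1.42% of all tested genes lower and 0.323% higher. A further 32 of the 44 lay below 0 without passing, which made 42 below 0 in all, where 52.5% of all tested genes did. The median log2 difference of the 44 genes was -0.98, and that of all tested genes was -0.02. An unadjusted p under 0.05 with a lower level was found for 31 of the 44 (9.99% of all tested genes). In 29 of the 44, all 4 Trap libraries lay below both controls (9.48% of all tested genes), and in 0 did all 4 lie above (5.36%). The number of the 44 genes at or above 1 FPKM dropped from 37 and 40 in the control libraries to between 20 and 26 in the Trap libraries. Trap libraries 2 and 4 stood apart in detection over all genes: 10298 and 10572 genes reached 1 FPKM in them, against 11011 to 11304 in the other 4 endothelial libraries. They also held the fewest of the 44 genes at 1 FPKM (21 and 20) and were the lowest of the Trap libraries for 16 and 19 of the 44. With both left out, in a fit added after the data were seen, 4 of the 44 fell (Kif11, Tpx2, Cenpe and Cdk1), 43 lay below 0 and the median was -0.93. In that fit 119 of all tested genes passed, against 286 in the main fit. The part of gene detection in the differences was not tested.

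Kif11 encodes the kinesin-5 motor that pushes the spindle poles apart. It measured 13.3 and 10.4 FPKM in the control endothelium and 2.15, 1.06, 2.02 and 1.75 FPKM with Trap. The Trap libraries lay within a narrow band far below both controls, a log2 difference of -2.23 ± 0.25 (limma adjusted p = 3.18e-05). This was the smallest p of the 44 genes, and Kif11 was the one gene of the 10 kinesins that passed.

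Tpx2, which brings Aurora A to spindle microtubules and activates it, stood at 11.7 and 5.14 FPKM in controls and at 0.88, 0.35, 1.69 and 0.60 FPKM with Trap. Its log2 difference of -2.28 ± 0.40 (limma adjusted p = 0.00369) was the largest of the 44. Cenpe, the kinetochore motor that carries chromosomes to the spindle equator, stood at 9.26 and 7.47 FPKM in controls and at 2.24, 0.49, 1.30 and 1.42 FPKM with Trap, a difference of -2.03 ± 0.36 (limma adjusted p = 0.00408). The groups did not overlap for either gene.

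Cdk1, the kinase that starts mitosis, measured 5.16 and 7.16 FPKM in controls and 0.91, 0.26, 0.46 and 2.07 FPKM with Trap (-1.97 ± 0.42, limma adjusted p = 0.0147). Ccna2, which encodes cyclin A2, a partner of CDK2 and CDK1, measured 9.28 and 5.68 FPKM in controls and 3.53, 2.71, 0.63 and 0.05 FPKM with Trap (-1.84 ± 0.44, limma adjusted p = 0.0273). The 4 Trap libraries spread widely for Ccna2 but remained below both controls. A share of 12.5% of the exonic bases of Ccna2 is also annotated to its neighbour Exosc9.

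Of the 4 checkpoint genes, 3 fell. Bub1, a kinase that gathers checkpoint proteins at kinetochores, went from 4.25 and 3.25 FPKM to 0.91, 0.64, 0.44 and 0.26 FPKM (-1.61 ± 0.34, limma adjusted p = 0.0135). Mad2l1, the MAD2 protein that inhibits CDC20, went from 3.70 and 2.72 FPKM to 1.16, 1.09, 0.98 and 0.37 FPKM (-1.16 ± 0.29, limma adjusted p = 0.0333). Ttk, the MPS1 kinase at the top of the checkpoint, went from 2.29 and 1.34 FPKM to 0.10, 0.02, 0.34 and 0.46 FPKM (-1.19 ± 0.31, limma adjusted p = 0.0468). In all 3 the Trap libraries sat below both controls, and those of Ttk were each under 0.5 FPKM. The remaining gene, Bub1b (BUBR1), did not pass: its control libraries stood at 9.05 and 3.11 FPKM, and 1 Trap library, at 5.13 FPKM, lay between them.

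Among genes of chromosome structure, 2 of 6 fell, among them Mki67, the most abundant of the 44 in control endothelium. Mki67, which codes for the Ki-67 protein that coats mitotic chromosomes and is the standard marker of cycling cells, measured 47.3 and 37.7 FPKM in controls and 15.0, 13.8, 11.8 and 6.37 FPKM with Trap (-1.82 ± 0.42, limma adjusted p = 0.0225). Top2a, the topoisomerase that untangles sister chromatids, measured 21.5 and 14.04 FPKM in controls and 5.19, 4.52, 4.81 and 3.96 FPKM with Trap (-1.71 ± 0.44, limma adjusted p = 0.0395). Both groups were separate for both genes, and the Trap libraries of Top2a were the more tightly spaced.

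**Figure D1:**
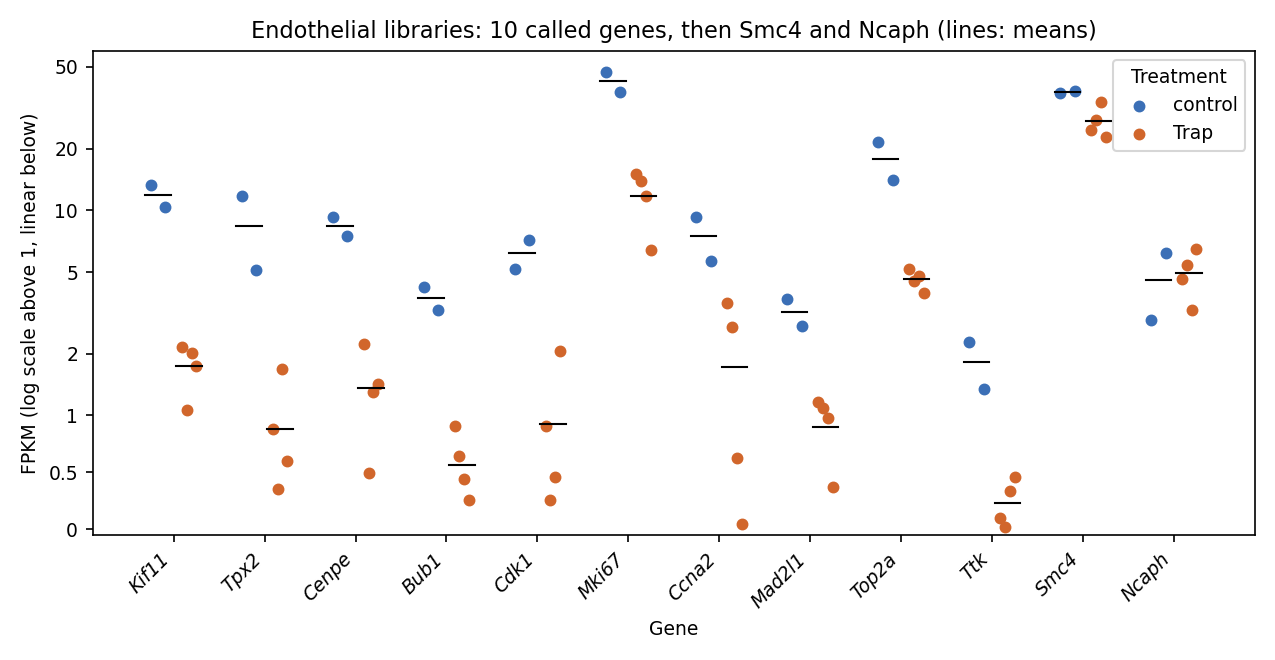
FPKM (log axis above 1, linear below) of 12 genes in the endothelial libraries, blue for the 2 controls and orange for the 4 Trap libraries, with a line at each mean. For the 10 genes on the left, which passed, every orange point lies below both blue points, for Smc4 the step is small (37.4 and 38.4 against 22.8 to 33.6 FPKM), and for Ncaph the groups overlap.

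The promoters of 6 genes that fell in endothelium are shown because late cell-cycle genes are known to be controlled through CCAAT boxes, bound by NF-Y, and through the cell cycle genes homology region (CHR), bound by the DREAM and MuvB complexes. The sequences are those of RefSeq on build GRCm38.p6, from 250 bases before to 30 bases after the annotated start, written 5′ to 3′ in the direction of the gene. Capitals mark the CCAAT box and the letters of the CHR type on either strand. For the CHR type the search used TTTGAA first. It then used TTCGAA as a variant. The last variant was TTTAAA. Each motif was searched on its own, so matches could overlap.
Kif11, spindle motor, chr19:37376132-37376411, plus strand: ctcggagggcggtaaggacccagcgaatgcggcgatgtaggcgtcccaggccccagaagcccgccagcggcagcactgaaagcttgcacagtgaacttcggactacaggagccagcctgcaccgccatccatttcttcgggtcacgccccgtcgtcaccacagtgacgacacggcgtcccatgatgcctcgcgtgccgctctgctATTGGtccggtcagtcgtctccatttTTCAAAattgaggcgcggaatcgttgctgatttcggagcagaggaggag
Cenpe, kinetochore motor, chr3:135212313-135212592, plus strand: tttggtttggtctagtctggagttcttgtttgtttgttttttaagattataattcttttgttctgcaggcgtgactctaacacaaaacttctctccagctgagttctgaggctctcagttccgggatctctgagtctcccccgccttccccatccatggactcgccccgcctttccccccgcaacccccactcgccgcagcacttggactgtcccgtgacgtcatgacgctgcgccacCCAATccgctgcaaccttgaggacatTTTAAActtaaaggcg
Bub1, checkpoint kinase, chr2:127831830-127832109, minus strand: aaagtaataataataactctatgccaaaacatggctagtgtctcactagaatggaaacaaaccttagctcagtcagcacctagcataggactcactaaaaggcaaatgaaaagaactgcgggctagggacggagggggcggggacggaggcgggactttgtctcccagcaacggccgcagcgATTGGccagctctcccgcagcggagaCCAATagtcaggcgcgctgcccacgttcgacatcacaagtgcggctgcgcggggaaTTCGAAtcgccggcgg
Cdk1, mitotic kinase, chr10:69352883-69353162, minus strand: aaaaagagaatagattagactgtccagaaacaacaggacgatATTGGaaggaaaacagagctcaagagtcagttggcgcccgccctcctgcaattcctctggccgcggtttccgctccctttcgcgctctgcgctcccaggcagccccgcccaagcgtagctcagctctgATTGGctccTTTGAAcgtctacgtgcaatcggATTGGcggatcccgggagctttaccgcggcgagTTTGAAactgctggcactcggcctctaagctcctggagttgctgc
Mki67, chromosome coat, chr7:135716350-135716629, minus strand: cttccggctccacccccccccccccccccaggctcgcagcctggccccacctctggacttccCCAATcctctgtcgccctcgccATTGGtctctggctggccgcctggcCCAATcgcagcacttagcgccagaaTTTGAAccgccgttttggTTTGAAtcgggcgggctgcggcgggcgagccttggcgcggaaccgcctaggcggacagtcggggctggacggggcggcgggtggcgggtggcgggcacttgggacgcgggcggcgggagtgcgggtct
Mad2l1, checkpoint protein, chr6:66534971-66535250, plus strand: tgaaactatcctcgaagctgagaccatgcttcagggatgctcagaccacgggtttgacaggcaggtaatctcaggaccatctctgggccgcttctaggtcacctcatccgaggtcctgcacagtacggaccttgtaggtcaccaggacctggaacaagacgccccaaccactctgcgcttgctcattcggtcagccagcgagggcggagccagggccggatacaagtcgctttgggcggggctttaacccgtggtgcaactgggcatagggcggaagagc
In Kif11, a CCAAT box lay 45 bases and a CHR-type match 19 bases before the start. Cdk1 held 3 CCAAT boxes and 2 matches of TTTGAA, Mki67 likewise held 3 and 2, Bub1 held 2 CCAAT boxes with TTCGAA, and Cenpe held 1 with TTTAAA. Mad2l1, which fell with the others, held none of these letters in this window. Its RefSeq start lies 169 bases upstream of the GENCODE start of the gene, so that the window does not reach the latter, whereas the starts of the other 5 genes shown are at most 26 bases apart. The genes that fell and are not shown lie on GRCm38 as Tpx2 at chr2:152847964-152895321, Ccna2 at chr3:36564865-36572150, Top2a at chr11:98992943-99024189 and Ttk at chr9:83834689-83872389, all protein-coding.

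Of the 44 genes, 37 had a promoter in the RefSeq table, 32 of them with a start within 100 bases of the GENCODE gene start. The others were Mad2l1, Cenpa, Kif4, Cdca8 and Kif2c, the last 2 by 2394 and 3867 bases. Prc1 had 2 entries and was counted if either held a match. The 7 not matched were Tpx2, Ccna2, Incenp, Smc4, Spc24, Aurkb and Kif20a. CCAAT occurred in 27 of the 37 promoters (73.0%) and in 36.1% of all 32851 promoters of the same length, and 48.6% against 11.1% held it at least 2 times. At least 1 CHR-type match occurred in 33 of the 37 (89.2%) and in 27.9% of all promoters. TTTGAA made up most of these, in 67.6% of the 37 and 17.2% of all, followed by TTTAAA (24.3% and 12.8%) and TTCGAA (8.11% and 1.47%). Both kinds together occurred in 73.0% of the 37 and in 10.5% of all promoters. These are counts of letters in a window and do not show that a factor binds there.

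The 34 genes that did not pass in endothelium differed in how close they came. Incenp, the scaffold of the chromosomal passenger complex, measured 7.83 and 6.41 FPKM in controls and 3.25, 0.86, 2.84 and 0.94 FPKM with Trap (-1.55 ± 0.43, limma adjusted p = 0.0615). Kif4, a chromosome-bound kinesin, measured 5.47 and 4.07 FPKM in controls and 2.77, 0.65, 0.70 and 0.25 FPKM with Trap (-1.59 ± 0.48, limma adjusted p = 0.0885). Both had all 4 Trap libraries below both controls.

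The outer kinetochore gave similar values. Ndc80, whose product grips the microtubule end, measured 9.62 and 5.85 FPKM in controls and 2.20, 4.34, 1.15 and 1.10 FPKM with Trap (-1.52 ± 0.50, limma adjusted p = 0.123). Its partner Nuf2 measured 1.51 and 2.14 FPKM in controls and at most 0.21 FPKM in the Trap libraries, 1 of which was listed at 0 (-1.37 ± 0.41, limma adjusted p = 0.0875). Cenpf, a large protein of the kinetochore and nuclear envelope, measured 2.36 and 2.99 FPKM in controls and 0.26 to 1.05 FPKM with Trap (-1.26 ± 0.37, limma adjusted p = 0.0746). The remaining subunits of the NDC80 complex were lower in mean with overlapping groups, at -0.90 ± 0.41 for Spc24 and -0.82 ± 0.37 for Spc25.

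The condensin subunits, which compact chromosomes, did not move alike in value. Ncapg was at 7.51 and 6.45 FPKM in controls and at 2.09 to 4.38 FPKM with Trap (-1.03 ± 0.31, limma adjusted p = 0.0950). Smc2 was at 12.7 and 12.9 FPKM in controls and at 3.27 to 7.66 FPKM with Trap (-1.09 ± 0.36, limma adjusted p = 0.126). Smc4, its partner, was at 37.4 and 38.4 FPKM in controls and at 22.8 to 33.6 FPKM with Trap, a smaller difference of -0.48 ± 0.23. For these 3 the groups were separate. Ncaph, the kleisin subunit of the same complex, overlapped fully, at 2.93 and 6.20 FPKM in controls and 3.27 to 6.50 FPKM with Trap (0.13 ± 0.35), and with Kifc1 it was 1 of the 2 genes not below 0.

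The 3 Aurora and Polo kinases stood at low levels. Aurkb, the kinase of the passenger complex, measured 2.63 and 2.00 FPKM in controls and 0.02 to 0.64 FPKM with Trap (-1.34 ± 0.46, limma adjusted p = 0.144). Aurka, the spindle pole kinase, measured 2.55 and 1.96 FPKM in controls and 0.46 to 1.30 FPKM with Trap (-0.83 ± 0.30, limma adjusted p = 0.170), and Bub1b gave -1.17 ± 0.42 with the same adjusted p. Plk1, the Polo kinase, measured 2.54 and 2.44 FPKM in controls and 0.12 to 1.21 FPKM with Trap (-1.06 ± 0.43). In Aurka, Aurkb and Plk1 the groups were separate.

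The B-type cyclins, the main partners of CDK1, were less uniform. Ccnb2 measured 16.95 and 21.2 FPKM in controls and 14.01, 2.22, 19.6 and 13.2 FPKM with Trap, so that 3 Trap libraries were near or within the control range (-0.87 ± 0.52). Ccnb1 was low throughout endothelium, at 0.68 and 1.80 FPKM in controls and at most 0.76 FPKM with Trap, with 2 libraries listed at 0 (-0.89 ± 0.40).

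Among genes that act in and after anaphase, Anln and Nusap1, a cortical scaffold of the cleavage furrow and a spindle microtubule bundler, gave -1.05 ± 0.47 and -1.02 ± 0.46 with separate groups, and Prc1, which bundles the midzone microtubules, gave -0.60 ± 0.30, also with separate groups. Cdc20, the activator of the anaphase-promoting complex, was at 4.58 and 6.81 FPKM in controls and 2.89 to 4.90 FPKM with Trap (-0.44 ± 0.39), and the groups overlapped. The ubiquitin-conjugating enzyme Ube2c gave -0.95 ± 0.45, with 22.8% of its exonic bases shared with Tnnc2, and separase (Espl1), never above 0.97 FPKM in endothelium, gave -0.70 ± 0.29. In the passenger complex, Birc5 (survivin) and Cdca8 (borealin) gave -0.73 ± 0.43 and -0.90 ± 0.38 with overlapping groups.

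The kinesins other than Kif11 and Kif4 lay between -0.91 ± 0.40 (Kif18b) and 0.20 ± 0.32 (Kifc1). Kif15, which can back up Kif11 in building the spindle, measured 2.68 and 3.14 FPKM in controls and 2.20, 2.19, 0.81 and 0.88 FPKM with Trap (-0.69 ± 0.35). Kif23, the midzone motor of cytokinesis, measured 6.18 and 5.68 FPKM in controls and 3.53, 5.02, 4.14 and 3.02 FPKM with Trap (-0.51 ± 0.34). In both the groups were separate. Kif20b (-0.61 ± 0.45), Kif20a (-0.46 ± 0.54), Kif22 (-0.42 ± 0.28) and Kif2c (-0.32 ± 0.33) overlapped. Kif20a shares 29.3% of its exonic bases with Cdc23, Kif4 15.1% with Pdzd11, Ncapg 13.4% with Lcorl and Prc1 11.1% with Rccd1. These neighbours, like those of Ccna2 and Ube2c, lie on the opposite strand, and their part in the values was not tested. Kifc1 has a near-identical copy, Kifc5b, so its value is uncertain.

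Grouped by role, the median log2 difference in endothelium was -1.26 for the centromere and kinetochore, -1.18 for the checkpoint, -1.06 for both the cyclins with their kinases and chromosome structure, -1.03 for the spindle and midzone, -0.90 for the passenger complex, -0.70 for anaphase promotion and -0.56 for the kinesins. Centromeric histone Cenpa, the mark on which the kinetochore is built, was at the small end of its group: 5.74 and 4.4 FPKM in controls and 2.73, 2.94, 2.06 and 4.27 FPKM with Trap (-0.62 ± 0.31).

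The count of 10 varied with the fit. It was 0 with the 6 endothelial libraries fitted alone (25 of the 44 at an unadjusted p under 0.05), 1 with 1 weight per population (Kif11), 5 after quantile normalization, 1 without the first endothelial control and 15 with a pseudocount of 0.1. The number of all tested genes that passed varied as well, from 286 in the main fit to 8, 13, 176, 97 and 307 in the same order. In each of these 5 fits 42 of the 44 lay below 0, and 40 did without the second control. The fit of 6 libraries and the weights change the SE and not the differences, so their 42 follows from the main fit. The median of -0.98 became -1.73 with a pseudocount of 0.1 and -1.51 after rescaling to TPM, a scale on which every library has the same total. That total is also higher than those of FPKM, so the added 1 weighs less, as with a smaller pseudocount. These effects were not separated.

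Markers of other cells were measured beside these values. Of 15 thymocyte genes, 1 fell in endothelium (Lck) and 0 rose, and their summed FPKM was 9.04 to 10.7 in controls and 7.71 to 13.2 with Trap. Of 12 epithelial genes 0 passed, with sums of 25.6 to 105 in controls and 37.2 to 280 with Trap, the highest in the second Trap library. Of 10 fibroblast genes 1 rose (Pi16), with sums of 255 to 441 in controls and 319 to 451 with Trap, and their mean log2(FPKM + 1) was 1.28 and 1.67 in controls and higher in every Trap library, at 1.94 to 2.10. Of 9 mural markers 0 passed, and their mean was lower in every Trap library, at 2.60 to 3.16 against 3.34 and 3.40 in controls. Of the 12 endothelial markers 0 passed, with a mean of 6.64 to 6.70 in the Trap libraries against 6.83 and 6.86 in controls. Myeloid sums were 33.3 to 48.7 FPKM in controls and 26.2 to 48.0 FPKM with Trap, and erythroid sums 16.1 to 78.8 and 72.9 to 118 FPKM. The part of these cells in the differences was not tested. Without the second Trap library, which had the highest epithelial sum, 8 of the 44 and 262 of all tested genes passed, against 286 of all in the main fit.

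Other genes of the cell cycle were lower in endothelium as well, in lists chosen with earlier results of these data known. Of all tested genes, 1.42% were lower with Trap and 52.5% lay below 0. Of 68 further mitotic genes, 5 fell and 66 lay below 0 (median -0.68), among them Cdc25b, the phosphatase that activates CDK1 (2.86 FPKM in controls and 0.49 with Trap, as means; -1.40 ± 0.29, limma adjusted p = 0.0131), and the condensin II subunit Ncapg2 (7.24 and 2.31 FPKM; -1.28 ± 0.30, adjusted p = 0.0231). Of 44 genes of DNA replication, which is the step before mitosis, 15 fell (median -0.80), Pcna, Gins1, Rrm2 and Rpa3 having the smallest p. Of the 14 subunits of the anaphase-promoting complex, which are not confined to mitosis, 0 passed, and their median was -0.15.

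Of 22 regulators of cell-cycle transcription, 1 fell (1.42% of all tested genes). It was E2f2, an E2F factor, at 3.10 and 3.25 FPKM in controls and at most 0.40 FPKM with Trap (-1.82 ± 0.30, limma adjusted p = 0.00223). Foxm1 and Mybl2, which drive the late genes through the CHR-bound complexes, measured -0.82 ± 0.30 (adjusted p = 0.172) and -0.79 ± 0.39 (adjusted p = 0.347). Of the G1 genes, Ccnd1 (cyclin D1) fell from 29.7 and 55.1 FPKM to between 1.99 and 11.4 FPKM (-2.44 ± 0.43, limma adjusted p = 0.00408), and Cdk6, a kinase that cyclin D binds, rose from 6.85 and 7.95 FPKM to between 11.4 and 23.2 FPKM (0.87 ± 0.21, limma adjusted p = 0.0266). Cdkn1a, the inhibitor p21, measured 77.5 and 111 FPKM in controls and 113 to 139 FPKM with Trap (0.44 ± 0.37, adjusted p = 0.662).

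**Figure D2:**
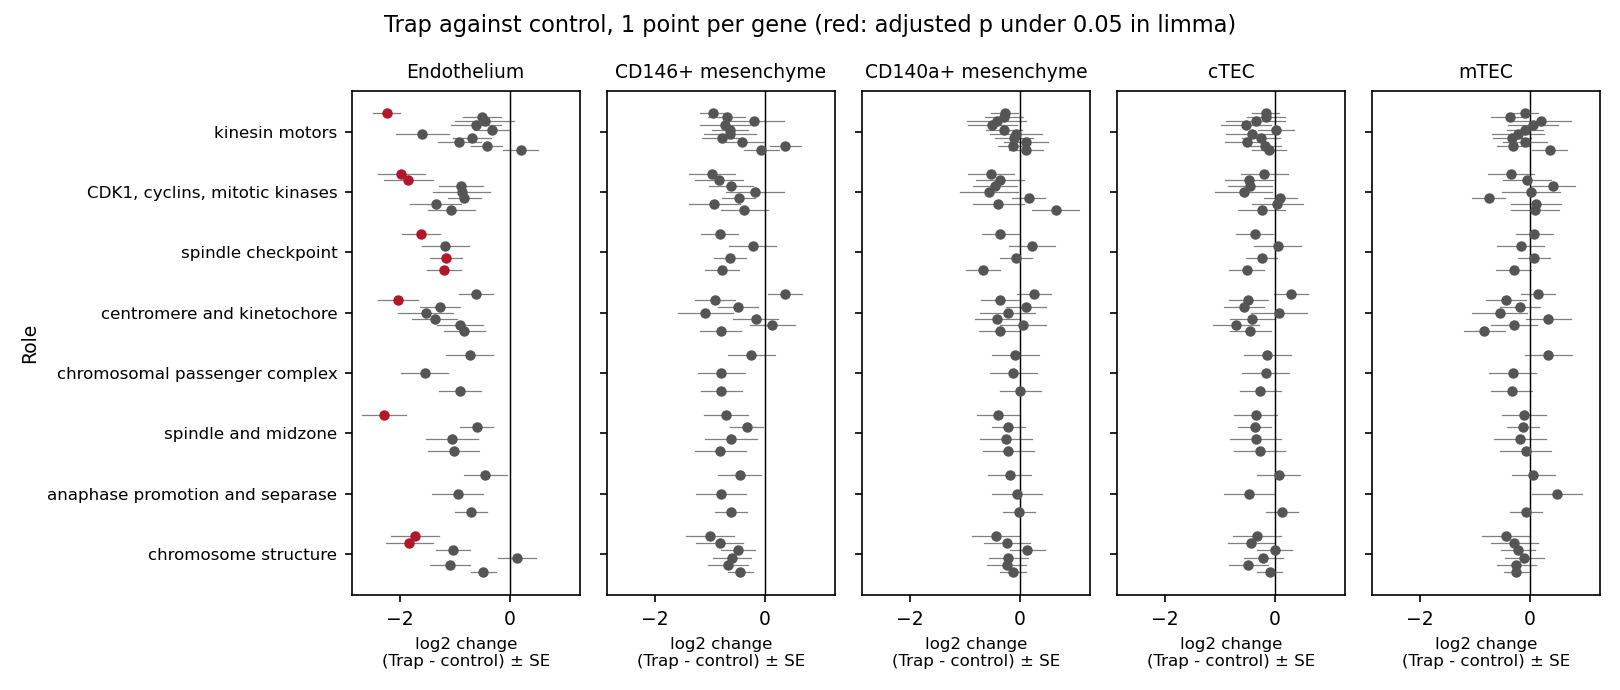
Log2 difference (Trap minus control, ± SE) of each of the 44 genes in the 5 populations, ordered by role, with the 10 genes that passed in red. In endothelium nearly all points lie left of 0 and reach -2.28, and in mTEC they lie on both sides of it.

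In CD146-positive mesenchyme, the perivascular population, 0 of the 44 passed, with 0.0122% of all tested genes lower and 0.00609% higher. Of the 44, 41 lay below 0 (48.7% of all tested genes), 12 had an unadjusted p under 0.05 (3.01%), and the median log2 difference was -0.63, where the median of all tested genes was 0. Kif11 had the smallest p here too: 25.9 and 18.8 FPKM in controls and 12.5, 12.7, 10.7 and 8.69 FPKM with Trap, which are separate groups (-0.94 ± 0.25, limma adjusted p = 0.426). Cenpe measured 20.8 and 13.02 FPKM in controls and 11.5, 13.2, 7.32 and 4.19 FPKM with Trap, with overlap (-0.90 ± 0.36, adjusted p = 0.935). Ttk measured 2.59 and 1.84 FPKM in controls and 0.68 to 0.96 FPKM with Trap (-0.78 ± 0.31, adjusted p = 0.937).

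In 9 of the 44 all 4 CD146 Trap libraries lay below both controls, against 6.84% of all tested genes. These were Kif11, Kif23, Aurka, Bub1, Mad2l1, Ttk, Spc25, Cdca8 and Espl1. In Kif22 they lay above both controls (5.80% of all tested genes). The Trap libraries differed among themselves: the fourth was the lowest of them for 33 genes and the second the highest for 29, and their means over the 44 genes ran from 1.79 to 2.76 on the log2 scale beside 2.62 and 3.05 in controls.

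In CD140a-positive mesenchyme 0 of the 44 passed, as did 0 of all tested genes. Of the 44, 34 lay below 0 (53.5% of all tested genes), 1 had an unadjusted p under 0.05 (2.25% lower), and in 0 were the groups separate, where 6.79% of all tested genes had all Trap libraries below and 5.14% above. The median difference was -0.21, and it was 0.14 without the second control. Ttk measured 1.55 and 3.35 FPKM in controls and 1.06, 2.26, 0.57 and 0.82 FPKM with Trap (-0.67 ± 0.31, limma adjusted p = 1). Plk1 measured 0.65 ± 0.43 and Cdk1 -0.52 ± 0.42, each with an adjusted p of 1. The second Trap library was the lowest of the Trap libraries for 30 genes and the fourth the highest for 30, as for Mki67, at 22.6, 15.0, 33.0 and 56.1 FPKM beside 23.3 and 48.1 FPKM in controls.

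In cTEC 0 of the 44 passed (0.00609% of all tested genes lower and 0 higher), 36 lay below 0 (51.0% of all tested genes), 0 had an unadjusted p under 0.05 (1.27% lower), and the median difference was -0.27. The 3 of smallest p were Spc24 (-0.70 ± 0.41), Ttk (-0.52 ± 0.31) and Cenpf (-0.56 ± 0.37), each with an adjusted p of 1. All 4 Trap libraries lay below both controls for Ccnb2, Spc25 and Ube2c (7.87% of all tested genes) and above both for Cenpa (5.66%). The fourth Trap library was the highest of the Trap libraries for 35 genes. The summed FPKM of the 15 thymocyte markers was also highest in that library, at 184, and was 73.6 and 110 in controls and 113 to 184 with Trap. Its part in the cTEC values was not tested.

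In mTEC 0 of the 44 passed (0.323% of all tested genes lower and 0.0244% higher), 30 lay below 0 (55.6%), 2 had an unadjusted p under 0.05 (4.97% lower), and the median difference was -0.12. Aurka measured 4.27 and 4.15 FPKM in controls and 1.95, 1.18, 3.04 and 2.55 FPKM with Trap, which are separate groups (-0.75 ± 0.30, limma adjusted p = 0.507). Spc25 measured 9.32 and 10.6 FPKM in controls and 3.25, 6.25, 7.33 and 4.58 FPKM with Trap, also separate (-0.83 ± 0.37, adjusted p = 0.601). Cenpe followed at -0.43 ± 0.36 (adjusted p = 0.928). Groups were separate and lower for 7 genes, the others being Kif23, Kif15, Cenpe, Ndc80 and Top2a (8.40% of all tested genes), and separate and higher for Kifc1 and Birc5 (5.06%).

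Across the 5 populations, 18 of the 44 genes were below 0 in all 5, 18 in 4, 6 in 3, 1 in 2 and 1 in 1. This joint count was not made for all tested genes, of which 48.7% to 55.6% were below 0 in a single population. The size of the Trap difference in endothelium was set against the mean of the other 4 populations. Kif11 alone of the 44 passed, with an endothelial difference further below 0, at -1.86 ± 0.27 (limma adjusted p = 0.00215), where 0.231% of all tested genes passed in that direction and 0.0487% in the other. Tpx2 (-1.89 ± 0.44, adjusted p = 0.0680) and Cenpe (-1.49 ± 0.40, adjusted p = 0.102) followed. An unadjusted p under 0.05 was found for 17, all lower (6.86% of all tested genes). The median over the 44 genes was -0.69 (-1.37 with a pseudocount of 0.1 and -1.27 after rescaling to TPM), and 42 lay below 0, where 52.3% of all tested genes did. With 1 weight per population 0 of the 44 and 5 of all tested genes passed (46 of all in the main fit), and Kif11 had a limma adjusted p of 0.0811. The count was 2 without the second CD140a control, the second CD146 Trap library, the second endothelial control or the third endothelial Trap library.

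**Figure D3:**
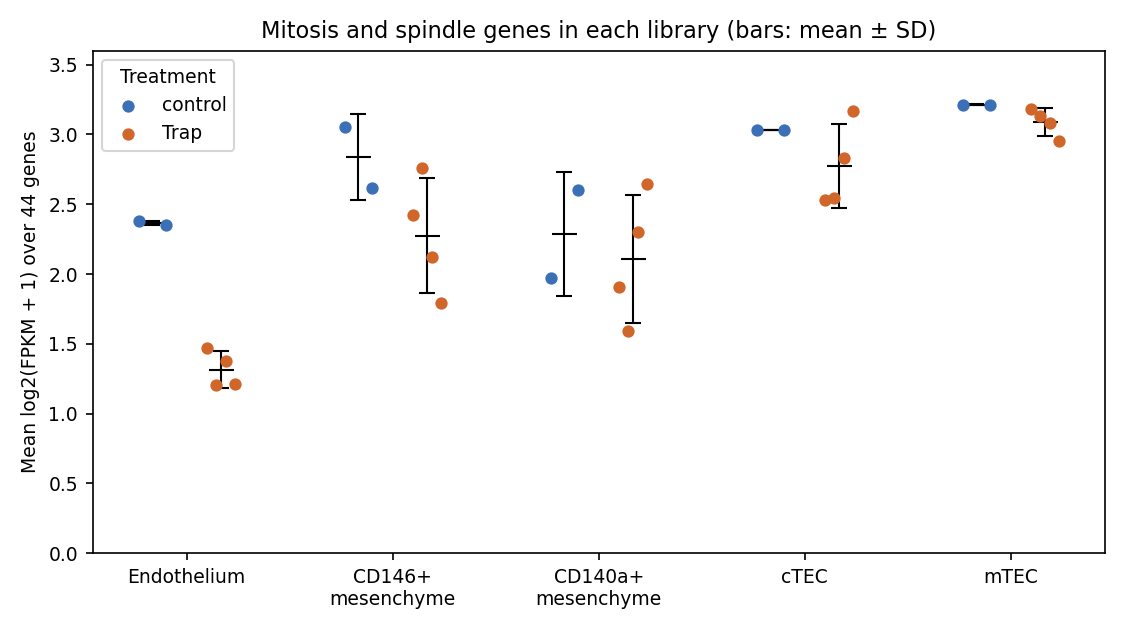
Mean log2(FPKM + 1) over the 44 genes in each library, with the mean ± SD of each group, blue for control and orange for Trap. The 4 endothelial Trap libraries (1.2 to 1.47) lie below the 2 endothelial controls (2.35 and 2.38), and in the other populations some Trap libraries reach or come near the controls.

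Averaged over the 44 genes, the endothelial level was 2.37 ± 0.017 (SD, n = 2) in controls and 1.32 ± 0.131 (SD, n = 4) with Trap. It was 2.84 ± 0.308 and 2.28 ± 0.413 in CD146-positive mesenchyme, 2.29 ± 0.444 and 2.11 ± 0.459 in CD140a-positive mesenchyme, 3.03 ± 0.0013 and 2.77 ± 0.301 in cTEC, and 3.21 ± 0.0020 and 3.09 ± 0.099 in mTEC. By group mean the control epithelium thus held the most of these transcripts. However, 1 CD146 control, at 3.05, lay above both cTEC controls (3.03 and 3.03). The control endothelium had a level that differed from that of the CD140a-positive cells by less than the spread of the latter. Of the 10 group means, the endothelial Trap group was the lowest for 35 of the 44 genes, and the mTEC control group was the highest for 22. This order was not counted over all tested genes. The mTEC libraries also detected more genes of any kind, with 12815 to 13661 at 1 FPKM against 10298 to 11304 in endothelium.

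The populations were compared with each other by setting each, averaged over control and Trap, against the mean of the other 4, so these comparisons share libraries. In endothelium 34 of the 44 were lower and 0 higher, against 34.5% of all tested genes lower and 17.7% higher. The largest differences at 5 FPKM or more were those of Ccna2 (-1.80 ± 0.24), Kif11 (-1.66 ± 0.14), Cenpe (-1.62 ± 0.20), Anln (-1.62 ± 0.26), Cenpf (-1.60 ± 0.20) and Kif4 (-1.59 ± 0.27), all at a limma adjusted p of 1.4e-05 or less. The 10 that did not pass were Kif23, Kif22, Cdk1, Ccnb2, Aurka, Plk1, Cenpa, Spc24, Cdc20 and Ncapg. Fewer passed when only the control means were compared, a comparison called the control libraries alone from here on. Its spread still came from all 30 libraries, Trap included. There 9 of the 44 (20.5%) were lower and 0 higher, against 21.3% and 13.2% of all tested genes. The share lower was then near that of all genes. These 9 were Kif11, Kif20b, Kif18b, Ccna2, Ccnb1, Cenpe, Cenpf, Spc25 and Anln, Ccnb1 having the smallest adjusted p (-1.26 ± 0.36, limma adjusted p = 0.00849).

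In mTEC 36 of the 44 were higher and 1 lower, against 38.4% and 17.5% of all tested genes. Kif4 was higher by 1.59 ± 0.27 (limma adjusted p = 1.21e-05), at 19.9 and 19.6 FPKM in the mTEC controls and 15.0 to 20.1 FPKM with Trap. Mad2l1 (1.27 ± 0.16), Ttk (1.26 ± 0.17), Ccna2 (1.23 ± 0.24) and Top2a (1.18 ± 0.24) followed. The one lower gene was Cenpa (-1.11 ± 0.17). Kif20a, Kif22, Kifc1, Ccnb2, Prc1, Cdc20 and Espl1 did not pass. In the control libraries alone 6 of the 44 (13.6%) were higher, a smaller share than the 27.2% of all tested genes, and 1 was lower (11.0%). Those higher were Kif4, Aurka, Mad2l1, Ttk, Spc25 and Cdca8. Myeloid markers summed to 249 to 401 FPKM in the mTEC libraries, most of it Lyz2, and their part in these values was not tested.

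In cTEC 20 of the 44 were higher and 1 lower, against 21.2% and 24.5% of all tested genes. The largest were Spc25 (1.13 ± 0.21), Kif11 (0.91 ± 0.14), Top2a (0.89 ± 0.24), Mki67 (0.85 ± 0.24) and Ccnb1 (0.84 ± 0.22), and the lower gene was again Cenpa (-0.86 ± 0.17). In the control libraries alone 2 of the 44 (4.55%) were higher, Mad2l1 and Spc25, a smaller share than the 13.1% of all tested genes. There 1 was lower, Cenpa (13.9% of all tested genes). The number higher or lower was 12 without the second cTEC control. Thymocyte markers summed to 73.6 to 184 FPKM in the cTEC libraries and to at most 17.1 FPKM in any other library. Their part in these values was not tested. Between the epithelial populations, 1 of the 44 differed, against 28.3% of all tested genes lower in cTEC and 12.9% higher. In the control libraries alone these shares were 17.7% and 6.74%, with 0 of the 44. It was Ttk, at 3.30 and 4.48 FPKM in cTEC controls and 6.22 and 5.76 FPKM in mTEC controls (-0.63 ± 0.22 over both treatments, limma adjusted p = 0.0220), and it did not pass in the control libraries alone, without the first cTEC control or without the first mTEC control.

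In CD140a-positive mesenchyme 16 of the 44 (36.4%) were lower and 0 higher, against 33.0% and 17.1% of all tested genes. The share lower was thus near that of all genes. The largest differences at 5 FPKM or more were those of Spc25 (-1.07 ± 0.21), Mad2l1 (-0.82 ± 0.16), Cdc20 (-0.75 ± 0.22), Smc4 (-0.75 ± 0.13), Ncapg (-0.73 ± 0.17) and Kif4 (-0.69 ± 0.27). In the control libraries alone 5 of the 44 (11.4%) were lower and 0 higher, against 20.4% and 11.4% of all tested genes. The 5, a smaller share than that of all genes, were Aurka, Mad2l1, Spc25, Ncapg and Smc4. The count of 16 was 10 after quantile normalization, 8 after rescaling to TPM, 4 without the first CD140a control and 9 without the second CD140a Trap library.

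CD146-positive mesenchyme had 2 of the 44 higher and 2 lower, against 18.2% and 25.0% of all tested genes. Cenpa stood apart from the other 43. It measured 9.97 and 15.1 FPKM in the CD146 controls and 14.8, 12.4, 19.98 and 18.4 FPKM with Trap, while no library of another population exceeded 5.74 FPKM. The difference was 2.17 ± 0.17 (limma adjusted p = 5.59e-11) and 2.00 ± 0.28 in the control libraries alone (adjusted p = 3.92e-06). Prc1, the midzone bundler, was higher by 0.76 ± 0.17 (adjusted p = 0.000473), at 9.38 and 7.86 FPKM in controls and 5.34 to 7.93 FPKM with Trap. Mad2l1 (-0.43 ± 0.16) and Ttk (-0.45 ± 0.17) were lower, and did not pass in the control libraries alone or, by a count of 2 in all, without the second CD146 control. In the control libraries 10.7% of all tested genes were higher and 14.5% lower.

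Between the mesenchymal populations, 6 of the 44 (13.6%) were lower in CD140a-positive than in CD146-positive cells and 0 higher, against 17.7% and 13.5% of all tested genes. They were Cenpa (-2.0 ± 0.22), Prc1 (-1.02 ± 0.21), Cdc20 (-0.98 ± 0.28), Spc25 (-0.79 ± 0.26), Ncaph (-0.68 ± 0.25) and Smc4 (-0.66 ± 0.16). In the control libraries alone 3 passed (9.16% of all tested genes lower and 7.06% higher), all lower: Cenpa, Prc1 and Smc4. The count was 3 without the first CD140a control.

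The order of Cenpa over the populations was thus not that of the other kinetochore genes. Its group means were 1.35 FPKM in mTEC controls and 1.54 in cTEC controls, where Cenpe reached 21.98 and 19.0 FPKM, and 12.5 FPKM in CD146 controls, where Cenpe was at 16.9 FPKM. In endothelial controls Cenpa was at 5.07 FPKM and Cenpe at 8.37 FPKM, with separate libraries in each case from those of the epithelium. CENP-A is a histone H3 variant that stays at centromeres through the whole cell cycle, whereas the motor CENP-E is made for mitosis and then destroyed. These are traits of the proteins, and whether they bear on the RNA levels was not tested.

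**Figure D4:**
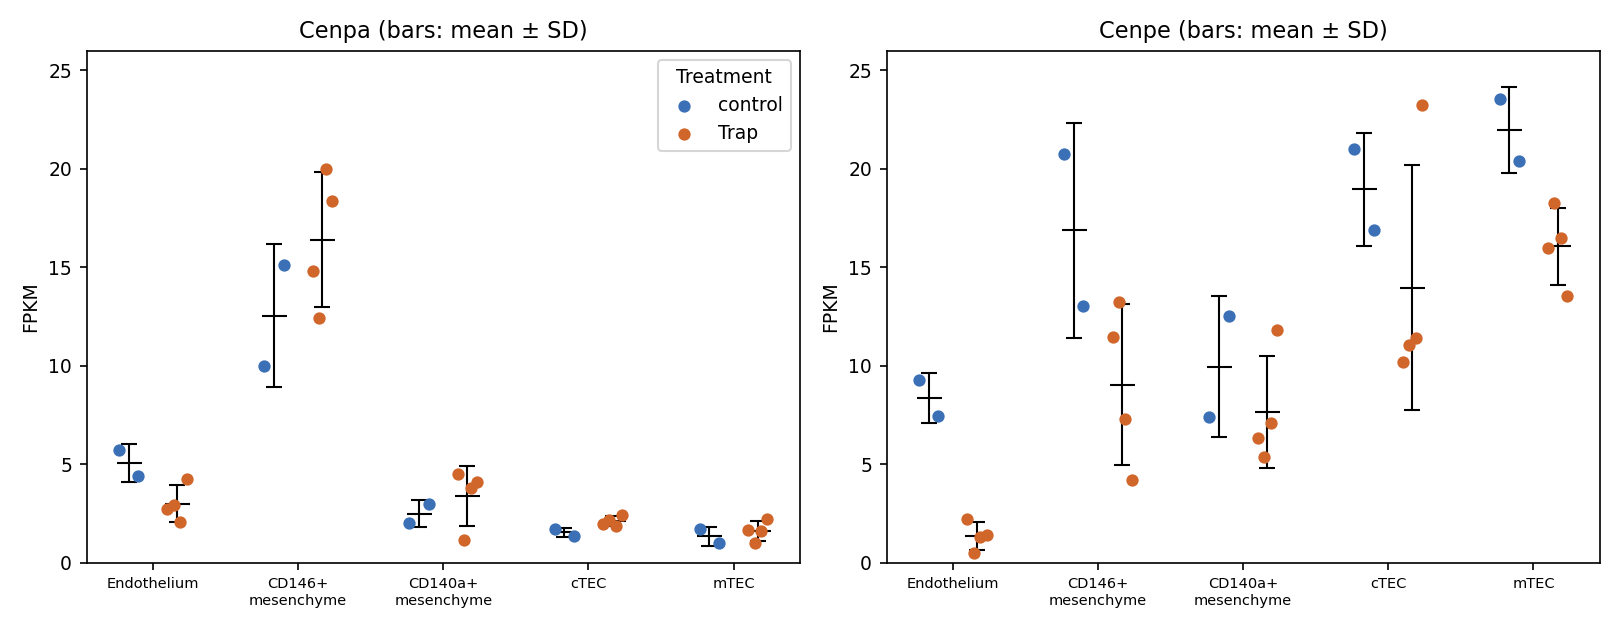
FPKM of Cenpa (left) and Cenpe (right) in each library, with the mean ± SD of each group, blue for control and orange for Trap. Cenpa is highest in CD146-positive mesenchyme (9.97 to 19.98 FPKM) and lowest in epithelium (0.99 to 2.43 FPKM), while Cenpe is highest in mTEC controls (20.4 and 23.5 FPKM) and lowest in endothelial Trap libraries (0.49 to 2.24 FPKM).

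**Figure D5:**
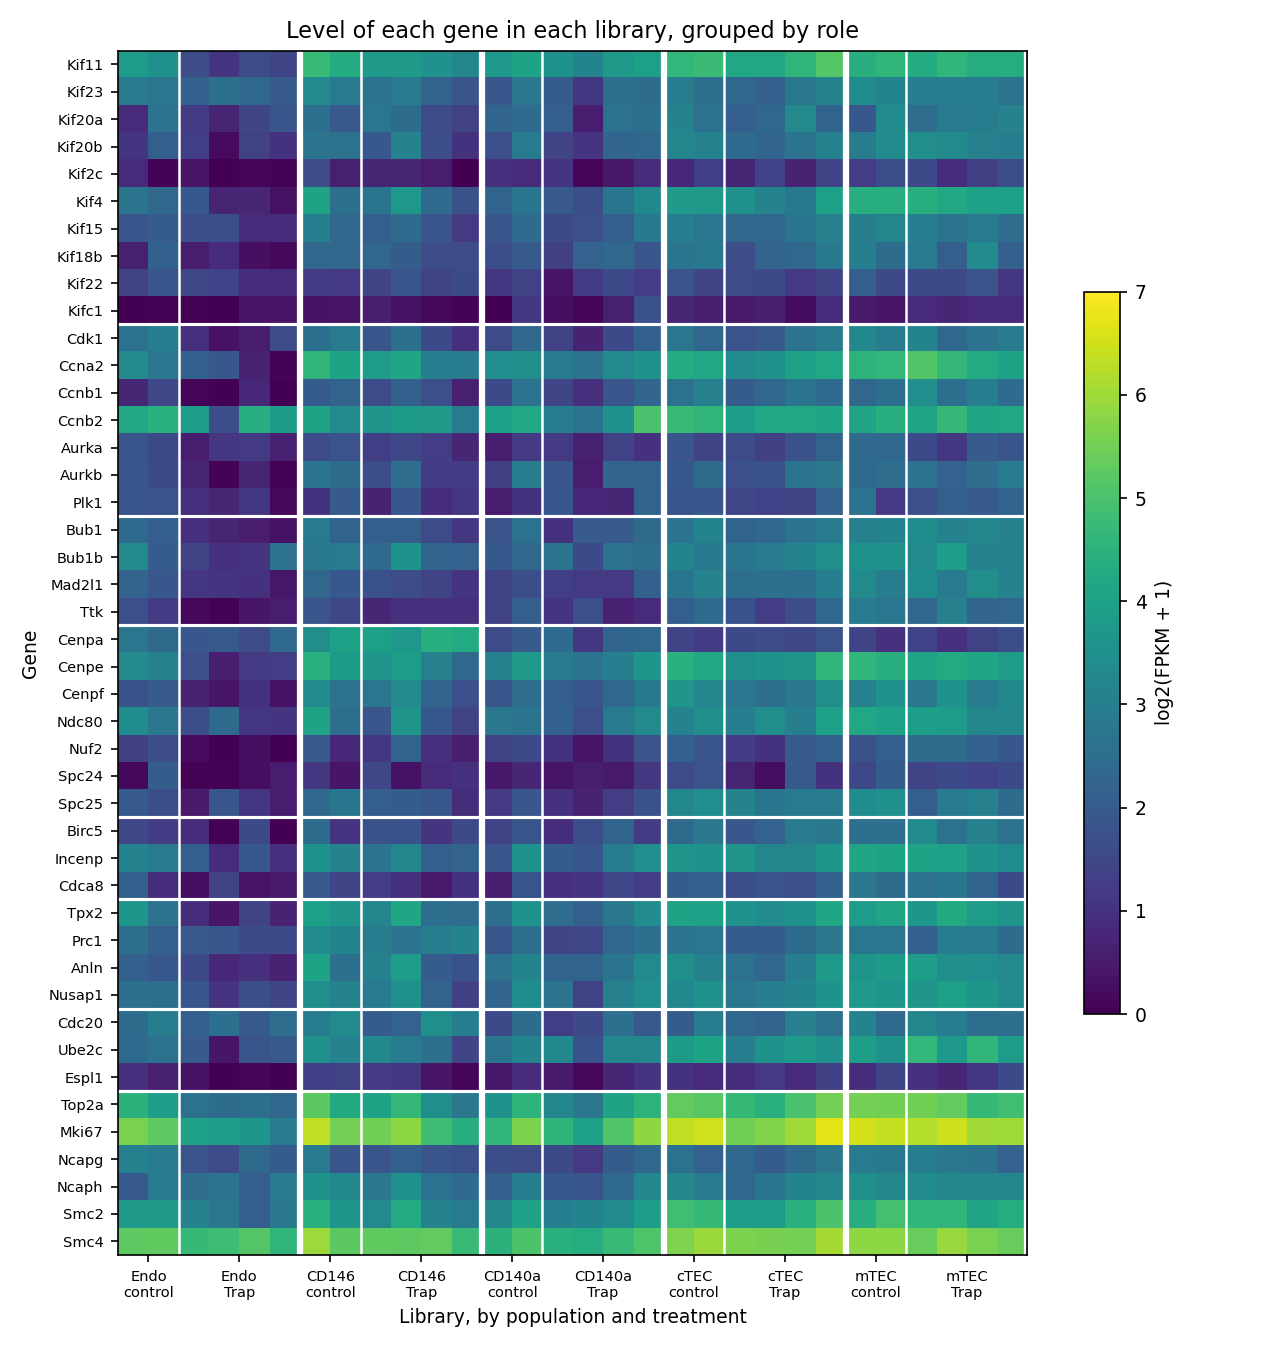
log2(FPKM + 1) of the 44 genes (rows, by role) in the 30 libraries (columns, by population and treatment). The 4 endothelial Trap columns are the darkest over most rows, Mki67, Top2a and Smc4 are bright in nearly every column, and the Cenpa row is bright in CD146-positive mesenchyme.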

How the data were processed

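RNA sequencing was done on 30 libraries of sorted thymic stroma. Amplification by the Ovation kit is given, per the labels' protocols. The submitters' processing notes name the tools STAR, DESeq2 and bcl2fastq (version 2.17), and the builds mm10 and GRCm38. How fragments were counted, and on which annotation, is not given in the sources used here. All values come from a single FPKM table that the authors deposited. Its low values showed no steps of whole reads, so the depth is unknown and precision is read from the spread between libraries.

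Values were transformed as log2(FPKM + 1), and genes at 1 FPKM in at least 2 libraries were kept (16425 of 18847). limma 3.58.1 in R 4.3.3 fitted 10 group means with empirical Bayes and a variance trend, and two-sided p-values were Benjamini-Hochberg adjusted over all genes. Alternatives were another pseudocount, no filter, 3 other scalings, 1 weight per population, a replicate block, each population alone, control means only (with the spread still from all 30 libraries), each library left out and, added after seeing the data, the endothelial Trap libraries with the fewest genes left out together. The scripts were tested on simulated data.

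The genes and lists were chosen with earlier results of these data known. Named were all genes that passed and the 20 of smallest p in endothelium, the 3 of smallest p in the other Trap comparisons, the 6 largest passing differences at 5 FPKM or more between populations, and the 4 of smallest p of other lists, with Foxm1, Mybl2, Ccnd1 and Cdkn1a. Where fewer or other genes are described, they were chosen after their values were seen. Coordinates are from GENCODE M21 on GRCm38, in which 18836 identifiers were found. Libraries of a group correlated at 0.888 to 0.980 across genes, and 0 pairs were identical.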

Additional observations from a re-analysis of the deposited data

Results flagged for a closer look

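The Trap difference of Kif11 differed between populations. It was -2.23 ± 0.25 in endothelium, -0.94 ± 0.25 in CD146-positive mesenchyme, -0.28 ± 0.25 in CD140a-positive mesenchyme, -0.17 ± 0.25 in cTEC and -0.09 ± 0.25 in mTEC, and the test of the difference between endothelium and the mean of the other 4 gave -1.86 ± 0.27 (limma adjusted p = 0.00215). No other of the 44 genes passed that test. The SEs of the populations are equal because 1 spread per gene was pooled over all 10 groups.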

How the results depend on the processing

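The 10 endothelial calls became 15 with a pseudocount of 0.1, 12 after rescaling to TPM, 5 after quantile normalization, 1 with 1 weight per population, 0 with the 6 libraries alone and 4 without both Trap libraries that detected the fewest genes (an alternative added after seeing the data), and ranged from 1 to 13 when 1 library was left out (lowest without the first control, highest without the third Trap library). Over all tested genes 286 passed in the main fit, and 307, 261, 176, 13, 8 and 119 in the 6 alternatives named first. The cause was not tested, except that the fit of 6 libraries has fewer samples. Rescaling to TPM also raises the values, so that the added 1 weighs less. With a replicate block the count was 6 (Ccna2, Mad2l1, Top2a and Ttk did not pass). Deviations of same-numbered libraries from their group means correlated weakly. The median r was 0.022 over 40 Trap pairs from different populations, 36 of them positive and 1 over 0.1, beside -0.0076 for other numbers. It was 0.032 over 20 control pairs, 14 of them positive. As deviations within a group sum to 0, the values for other numbers partly follow from these. With 2 controls a population they follow fully, so the -0.032 of other-numbered controls adds nothing. Each control value also occurs 2 times among the 20. Over 10 pairs of control and Trap libraries r ran from -0.27 to 0.081. The numbers were not taken as pairing because not every pair was over 0.1. That rule cannot show that same-numbered libraries were unrelated. The other counts stayed within 1.5 times under the block. The difference of Trap changes had 2 calls with a pseudocount of 0.1 and 2 after rescaling to TPM, 0 with 1 weight per population, and 1 to 2 with a library left out.

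Between populations, the control libraries alone gave 9 calls for endothelium, 7 for mTEC, 3 for cTEC, 5 for CD140a, 2 for CD146, 3 between the mesenchymal populations and 0 between cTEC and mTEC. That comparison had fewer samples in each mean, and its spread came from all 30 libraries. A pseudocount of 0.1 gave 2 calls for CD146 and 0 between cTEC and mTEC, TPM gave 8 for CD140a and 0 between cTEC and mTEC, and quantile normalization 10 for CD140a. With a library left out, counts ran from 27 to 34 for endothelium, 35 to 38 for mTEC, 12 to 22 for cTEC, 4 to 17 for CD140a, 2 to 4 for CD146, 3 to 9 between the mesenchymal populations and 0 to 1 between cTEC and mTEC. The median of the 44 genes turned from negative to positive for CD146 (0.091 after rescaling to TPM, 0.055 in controls alone, 0.074 without its second control and 0.055 without the fourth of its Trap libraries, from -0.15 to 0.074 with a library left out), for cTEC against mTEC (0.050 after quantile normalization) and for Trap in CD140a (0.14 without its second control, from -0.49 to 0.14 with a library left out). The number of controls, 2 a population, and the unknown depth limit the precision.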
